A study of Brassica napus with 12 samples.

Results

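The transcripts described here are those that were higher than in their own control line in each of 3 selected lines of canola (Brassica napus). The study concerns lines selected for high NAD(P)H content together with low respiration. Of 60756 gene IDs in the count table, 23802 had a mean of at least 2 CPM (counts per 1000000 counts of a library) over the 12 libraries, and 183 of them met the rule. The rule used L = log2(CPM + 0.5), with CPM taken over the library total. It asked that all 4 libraries of the selected lines PEG-1 and PEG-2 lie above both PEG control libraries, that all 3 libraries of the selected EUE epiline lie above all 3 EUE control libraries, and that the group mean of L be at least 1 higher, which is 2-fold on that scale, in each selected line than in its own control. The differences between a selected line and its own control thus chose the 183 IDs, so these differences are given as a description and were not tested.

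The RNA was polysomal, that is, mRNA with ribosomes on it. Several ribosomes on an mRNA form a polysome, which is heavy enough to be pelleted through sucrose, while free mRNA stays behind. The polysomal level of a transcript therefore moves with its amount and with the share of it that is being translated. Respiration in plant mitochondria makes NADH from organic acids and oxidises it again in the electron transport chain, and NAD(P)H carries the reducing power for much of leaf metabolism. In a whole leaf, fewer cells of a type and less of a transcript per cell cannot be told apart.

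All plants carried the same cultivar label, the oleifera form biennis, and every library came from leaf 4 of plants aged 26 days, untreated, that had spent 2 weeks on agar followed by 12 days in soil. There were 2 libraries of each of 3 PEG groups, a control line, the PEG1 selected epiline (PEG-1) and the PEG2 selected epiline (PEG-2). There were 3 libraries of the EUE selected epiline and 3 of the control line for it. The design text speaks of 2 selected epilines sampled in triplicate, whereas the sample labels name 3 selected lines and give the PEG groups 2 libraries each. Which of the 3 lines the design text means is not stated. The labels call the libraries biological replicates and do not say how many plants a library holds or how many plants founded a line, so p-values measure the spread between these libraries. Library totals ran from 36210542 to 42696798 counts. An ID starts with ERF or ERC, or joins an ERF and an ERC number. None of the IDs, 0 of 60756, matched the RefSeq gene table, so no gene name, function, sequence or pathway is given for any ID, and the leaf label could not be checked against marker genes.

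Before the values of single transcripts, the size of the set can be read from the parts of the rule. In the PEG experiment 211 IDs met its part of the rule, 0.886% of the 23802, and in the EUE experiment 448 did, 1.88%. The 183 IDs that met both are 86.7% of the PEG list and 40.8% of the EUE list. The PEG and EUE experiments share no library. With every sign turned round, 19 IDs (0.0798%) were lowered by the PEG part and 5 (0.0210%) by the EUE part, and 0 by both. Of the 265 IDs of the EUE list that missed the PEG part, 255 had a positive mean difference in both PEG lines. All 4 PEG line libraries lay above both controls in 144 of the 265. The mean difference of PEG-2 was under 1 in 254 of the 265 and that of PEG-1 in 147. Of the 28 IDs on the PEG list alone, 27 had a positive mean difference in the EUE epiline. Among the 23619 IDs outside the 183, 27.3% had group means above the own control in all 3 lines. The shares of all IDs in the single positions counted here were not computed, so nothing is read from these counts.

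The limits of the rule cut through a continuous range. There were 326 IDs that failed only the 2-fold condition, 26 that failed only the ordering of libraries and 20 that failed only the minimum of 2 CPM. Just inside the 2-fold limit, the smallest of the 3 differences was 1.00 for ERF66145 and 1.01 for ERF81239, and just outside it was 0.999 for ERF65062-ERC42947 and 0.997 for ERF96582-ERC50942. In all 4 of these the PEG-2 difference was the smallest. Just inside the CPM limit lay ERC53971 with a mean of 2.05 CPM and ERF78601 with 2.07 CPM, and just outside it ERC23359 with 1.97 CPM and ERF67136 with 1.94 CPM. ERF64760 missed the ordering in the EUE experiment, where EUE epiline replicate 1 was at 1.91 CPM and EUE control replicate 1 at 1.94 CPM. ERF74616-ERC37416 missed it there too, with EUE epiline replicate 1 at 1.01 CPM and EUE control replicate 3 at 1.03 CPM.

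Together the 183 transcripts made up a small share of the polysomal reads. Their summed level was 627 and 916 CPM in the PEG control libraries, 2794 and 5765 CPM in PEG-1, and 2046 and 3166 CPM in PEG-2. It was 1096, 480 and 787 CPM in the EUE control libraries and 1883, 4660 and 7005 CPM in the EUE epiline. The 5 control libraries thus lay below the 7 libraries of the selected lines, from 0.0480% to 0.110% of all counts against 0.188% to 0.701%. The PEG control had a sum of 772 ± 204 CPM (SD, n = 2), PEG-1 of 4279 ± 2101 CPM (SD, n = 2) and PEG-2 of 2606 ± 792 CPM (SD, n = 2), so the ratios to the control were 5.54 and 3.38. In the EUE experiment the sum was 788 ± 308 CPM (SD, n = 3) in the control and 4516 ± 2564 CPM (SD, n = 3) in the epiline, a ratio of 5.73. The spread between libraries was large in the epiline and in its control. Set against the EUE control library of the same number, the sum in the EUE epiline was 1.72, 9.71 and 8.90 times as high in replicates 1, 2 and 3. Over all pairs of an EUE epiline and an EUE control library, the ratio ran from 1.72 to 14.6.

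**Figure D1:**
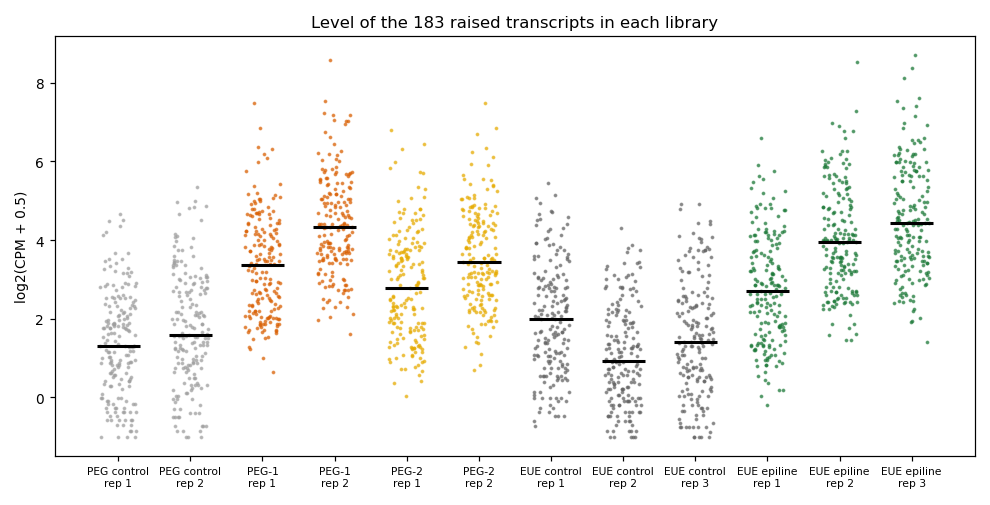
Level of each of the 183 transcripts in the 12 libraries, as log2(CPM + 0.5); each point is a transcript, the bar is the median over the 183, and colours mark the 5 groups. The medians of the 5 control libraries lie between 0.94 and 1.98 and those of the 7 selected libraries between 2.71 and 4.42.

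The largest differences were near an on-off pattern. ERF56853-ERC48126 was at 0.0551 and 0.0528 CPM in the PEG control, 12.0 and 11.1 CPM in PEG-1, 4.33 and 4.36 CPM in PEG-2, 1.40, 0.0543 and 0.0937 CPM in the EUE control, and 4.52, 17.3 and 53.4 CPM in the EUE epiline. Against the own control, L was higher by 4.44 in PEG-1, by 3.13 in PEG-2 and by 4.30 in the EUE epiline. Libraries of both PEG lines agreed closely for this ID, while EUE epiline replicate 3 stood far above replicate 1.

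ERF60277-ERC42165 was at 0.827 and 2.38 CPM in the PEG control, 18.3 and 31.0 CPM in PEG-1, 13.1 and 20.6 CPM in PEG-2, 1.56, 0.272 and 1.64 CPM in the EUE control, and 2.82, 25.1 and 45.0 CPM in the EUE epiline. All 4 PEG line libraries stood far above the controls, but EUE epiline replicate 1 was close to the EUE control. ERF61844-ERC57624 was at 2.92 and 2.91 CPM in the PEG control, 27.3 and 97.2 CPM in PEG-1, 17.8 and 42.4 CPM in PEG-2, 3.66, 1.30 and 2.34 CPM in the EUE control, and 15.1, 35.0 and 53.0 CPM in the EUE epiline. In this ID replicate 1 of every selected line was the lowest of its line and still well above the highest control. ERF81066-ERC23699 had the same order, with 0.386 and 0.581 CPM in the PEG control, 7.63 and 18.5 CPM in PEG-1, 5.17 and 8.73 CPM in PEG-2, 0.861, 0.543 and 0.515 CPM in the EUE control, and 3.19, 18.8 and 22.9 CPM in the EUE epiline.

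Levels in CPM are not corrected for transcript length, so they are compared here only between libraries for the same ID. The ID with the most reads, ERF54332-ERC23709, was at 22.2 and 28.4 CPM in the PEG control, 177 and 380 CPM in PEG-1, 111 and 179 CPM in PEG-2, 43.4, 14.2 and 21.7 CPM in the EUE control, and 95.9, 367 and 415 CPM in the EUE epiline. It followed the mean of the other members closely, with the same low libraries, PEG-1 replicate 1, PEG-2 replicate 1 and EUE epiline replicate 1. ERF60873 was at 17.1 and 28.4 CPM in the PEG control, 115 and 186 CPM in PEG-1, 85.7 and 114 CPM in PEG-2, 25.5, 6.36 and 20.9 CPM in the EUE control, and 59.5, 155 and 194 CPM in the EUE epiline. ERF69025-ERC35101 was at 18.0 and 31.0 CPM in the PEG control, 79.4 and 148 CPM in PEG-1, 56.3 and 80.0 CPM in PEG-2, 35.0, 13.0 and 29.8 CPM in the EUE control, and 53.4, 108 and 276 CPM in the EUE epiline. Both had replicate 1 lowest in each selected line. ERC54362 was at 24.9 and 10.6 CPM in the PEG control, 63.2 and 108 CPM in PEG-1, 40.0 and 45.7 CPM in PEG-2, 22.8, 19.3 and 17.6 CPM in the EUE control, and 33.0, 126 and 334 CPM in the EUE epiline. Its control libraries were close together in the EUE experiment, and its epiline libraries were far apart.

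**Figure D2:**
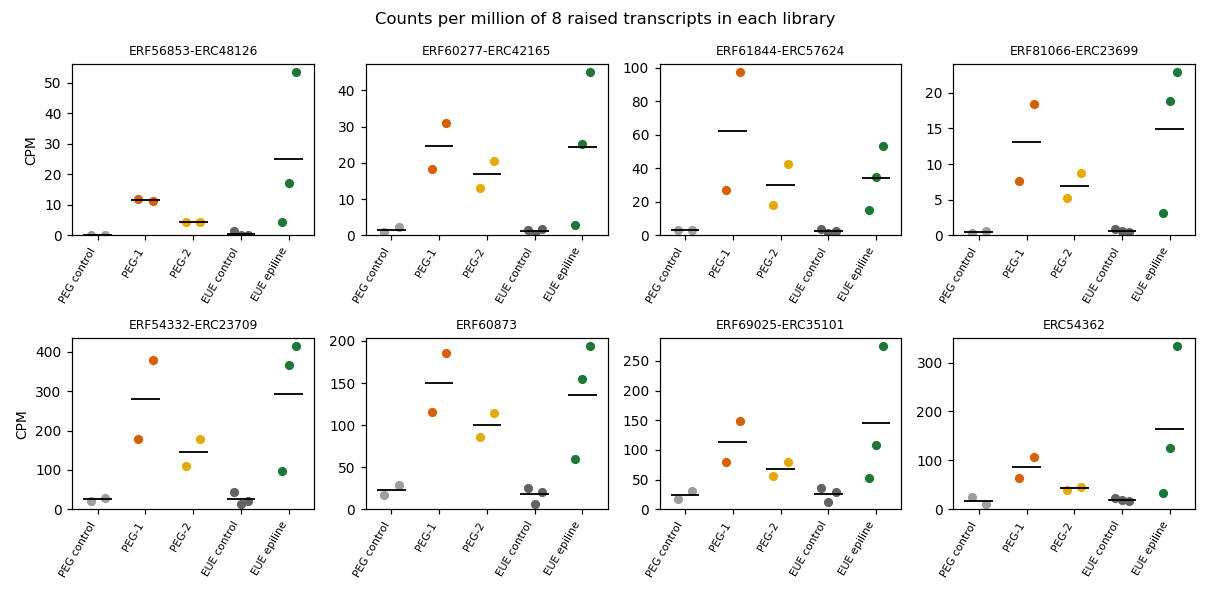
CPM in each library of 8 transcripts, the 4 with the largest smallest-of-3 difference (upper row) and the 4 with the most reads (lower row); points are libraries in the order of their replicate numbers and bars are group means. In all 8 the selected libraries lie above their own controls, as the rule asks, and replicate 1 is the lowest EUE epiline library.

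Across the 183 transcripts the difference in L had a median of 2.26 in PEG-1 with a range of 1.1 to 4.44, of 1.53 in PEG-2 with a range of 1.00 to 3.13, and of 2.18 in the EUE epiline with a range of 1.01 to 4.30. The medians over the 23802 IDs were 0.03 for PEG-1, 0.02 for PEG-2 and 0.03 for the EUE epiline. The rule sets the lower end of the members' values. A difference of at least 2 was reached by 117 members for PEG-1, 46 for PEG-2 and 114 for the EUE epiline, and of at least 3 by 31, 3 and 21. PEG-2 had the smallest of the 3 differences in 169 members. Members with a large difference in a PEG line also had a large difference in the EUE epiline: across the 183 IDs the differences of PEG-1 and the EUE epiline, which share no library, correlated with r = 0.75, and those of PEG-2 and the EUE epiline with r = 0.76. These r are across genes that were cut at the same lower limit, and genes are not independent replicates. The rule chose the IDs by these same differences, so the r are a description and were not tested.

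**Figure D3:**
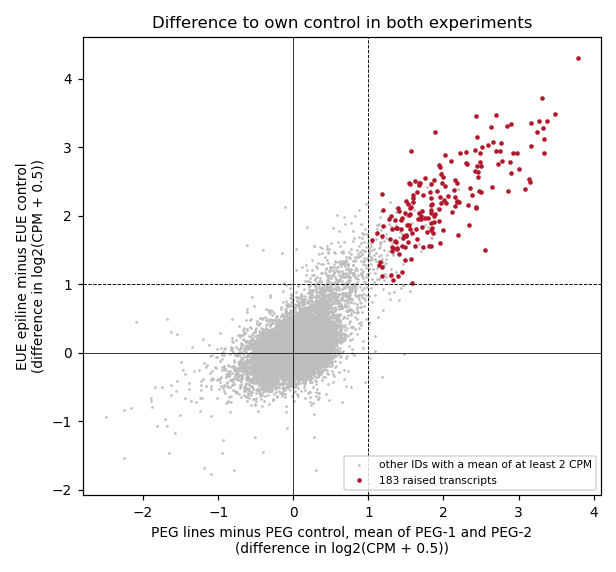
Difference in log2(CPM + 0.5) between the PEG lines and the PEG control (mean of PEG-1 and PEG-2, horizontal) and between the EUE epiline and the EUE control (vertical) for 23802 IDs; dashed lines mark a difference of 1. The 183 transcripts (red) lie up and right because the rule chose them there, with grey IDs between them and the main cloud, and with few IDs at the lower left.

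Because the rule used every library, each library was then left out in turn, the rule was applied to the other 11, and the position of the library that had no part in the choice was read. EUE epiline replicate 3 lay above all 3 EUE controls in 172 of the 172 IDs chosen without it, a position held by 23.9% of all IDs over the CPM limit. EUE epiline replicate 2 did so in 179 of 181 (all IDs 22.1%) and EUE epiline replicate 1 in 187 of 207 (all IDs 32.5%). The last of these was the weakest of the 3: its median L was 1.15 above the EUE control mean, against 2.39 for replicate 2 and 2.90 for replicate 3.

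In the PEG experiment PEG-1 replicate 1 lay above both controls in 185 of 188 IDs (all IDs 29.6%), PEG-1 replicate 2 in 173 of 173 (32.8%), PEG-2 replicate 1 in 210 of 229 (34.7%) and PEG-2 replicate 2 in 130 of 130 (22.2%). Medians of the left-out library over the control mean were 1.72 and 2.74 in L for PEG-1 and 1.05 and 1.90 for PEG-2. The control libraries behaved in kind. PEG control replicate 1 lay below all 4 PEG line libraries in 154 of 156 IDs (all IDs 28.7%) and PEG control replicate 2 in 210 of 252 (30.2%). In the EUE control, replicate 1 lay below all 3 epiline libraries in 190 of 202 IDs (21.0%), replicate 2 in 181 of 181 (29.7%) and replicate 3 in 186 of 192 (28.9%). A left-out library was still compared with libraries that took part in the choice, and the IDs move together, so the counts are not separate trials.

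**Figure D4:**
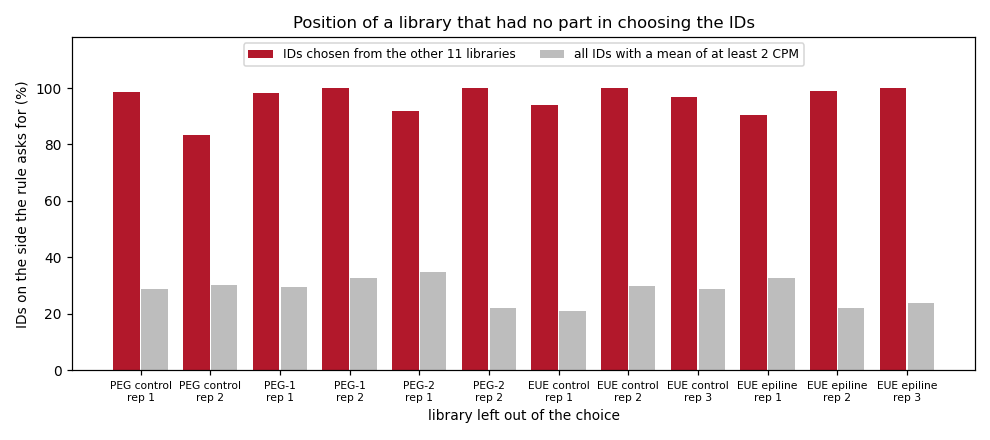
Share of IDs, in percent, in which the library named below the bars lay above every own control (selected lines) or below every selected library of its experiment (controls), for IDs chosen by the rule without that library (red) and for all IDs over the limit of 2 CPM (grey). The red bars run from 83.3% for PEG control replicate 2 to 100% and the grey bars from 21.0% to 34.7%.

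The 183 transcripts also moved together between replicates of the same group, which the rule did not ask for. Of the epiline libraries, EUE epiline replicate 1 ranked lowest in 182 members and replicate 3 highest in 148. In the EUE control, replicate 1 was the highest in 152 and replicate 2 the lowest in 140. Relative to the group mean, EUE epiline replicate 1 was higher in 0.546% of members and 52.8% of all IDs, and replicate 3 in 96.7% and 47.1%. For the EUE control these shares were 95.6% and 55.1% in replicate 1, and 10.4% and 53.1% in replicate 2. Replicate 2 was above replicate 1 in 174 members in PEG-1, by a median of 1.00 in L, in 159 in PEG-2, by 0.64, and in 121 in the PEG control, by 0.38. Over all 23802 IDs it was the higher in 50.6%, 34.5% and 45.4%, in the same order. The medians of all 23802 IDs stayed within 0.07 of the group mean in every library.

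Over 17455 IDs of at least 5 CPM, same-numbered EUE libraries deviated together from their group means, with r of 0.62, 0.74 and 0.61. Across the 183 members the same r were only 0.10, 0.36 and 0.14, and EUE control replicate 3 had an r of 0.11 with EUE epiline replicate 1. Same-numbered PEG libraries also deviated together over the 17455 IDs. There r was 0.53 for the control with PEG-1, 0.69 for the control with PEG-2 and 0.55 for PEG-1 with PEG-2. PEG-1 and PEG-2 libraries of the same number had an r of 0.85 across the members, and the PEG control had -0.08 with PEG-1 and -0.06 with PEG-2. Of the members, the median deviation was -0.97 in EUE epiline replicate 1 and 0.46 in EUE control replicate 1. Set against the control library of the same number, the members were higher by a median of 0.70 in replicate 1, 2.91 in replicate 2 and 2.92 in replicate 3. The difference in the EUE experiment was thus smallest where the epiline was low and the control high.

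**Figure D5:**
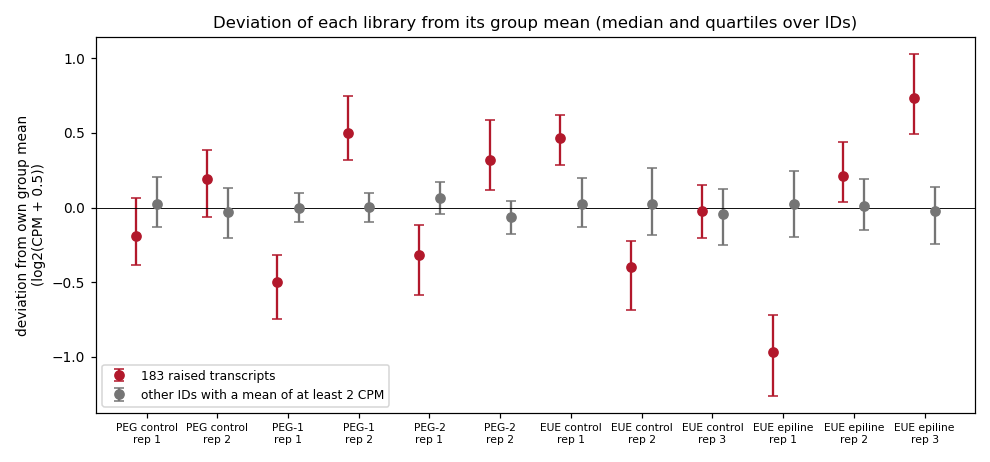
Deviation of each library from the mean of its own group in log2(CPM + 0.5); points are medians and bars the quartiles over the 183 transcripts (red) or over the other IDs over the limit of 2 CPM (grey). The red medians run from -0.97 in EUE epiline replicate 1 to 0.73 in EUE epiline replicate 3, while the grey ones stay near 0.

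The common movement was measured by correlating the deviations of each ID from its group means, over 12 libraries, with the mean deviation of the members, leaving the ID itself out where it was a member. The median r was 0.86 in the 183 members and 128 of them had an r of at least 0.8, 69.9%, against 1.16% of the 23619 other IDs. These deviations have only 7 degrees of freedom, and all IDs of a library share its depth and handling. A single axis took 72.5% of the members' variance within groups and 46.8% of that of the other IDs. ERF71769-ERC53466, with an r of 0.24, ERF83087-ERC43515, with 0.43, and ERC53971, with 0.47, followed it least.

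The spread between replicates was wide in the members. Their median SD of L within groups was 0.77, against 0.29 over the 23802 IDs, and it ran from 0.31 to 1.25. ERF67038-ERC40299 had the highest, with 0.276 and 0.475 CPM in the PEG control, 3.06 and 16.6 CPM in PEG-1, 1.41 and 6.68 CPM in PEG-2, 0.592, 0.0543 and 0.0937 CPM in the EUE control, and 1.27, 15.4 and 11.6 CPM in the EUE epiline. ERF89913-ERC43551 followed, with no count in the PEG control, 5.81 and 8.37 CPM in PEG-1, 1.98 and 3.15 CPM in PEG-2, 0.484, 0.109 and 0 CPM in the EUE control, and 0.638, 8.46 and 23.2 CPM in the EUE epiline. In both the low libraries of the selected lines were those numbered 1.

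The 2 members with the lowest spread had small differences between lines and controls. ERF58868 was at 3.80 and 5.50 CPM in the PEG control, 10.7 and 10.1 CPM in PEG-1, 12.4 and 9.67 CPM in PEG-2, 5.00, 2.93 and 3.70 CPM in the EUE control, and 7.33, 11.4 and 11.6 CPM in the EUE epiline. ERF93239 was at 1.32 and 1.16 CPM in the PEG control, 3.50 and 5.33 CPM in PEG-1, 4.44 and 2.43 CPM in PEG-2, 2.26, 1.36 and 1.5 CPM in the EUE control, and 3.13, 4.48 and 5.42 CPM in the EUE epiline. Their L was between 1.1 and 1.47 higher in the selected lines, and in PEG-2 replicate 1 was the higher library, unlike in most members.

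Other IDs whose replicates moved like the members were also mostly higher in the selected lines. The 100 other IDs with the highest r, from 0.88 to 0.99, were found from deviations within groups. These deviations hold no difference between a line and its control, but r was taken with the mean deviation of the members. The rule chose the members by such differences in the same libraries. The counts and medians given here are thus a description from the same data, not separate evidence, and were not tested. Of these 100, 95 had a group mean of L above the own control in all 3 lines, against 27.3% of the 23619 other IDs. Their median differences were 0.93 for PEG-1, 0.53 for PEG-2 and 1.15 for the EUE epiline, and 47 of them met the EUE part of the rule and 8 the PEG part. The 100 IDs with the lowest r, from -0.93 to -0.81, leaned the opposite way, with small differences. Of them 34 were below the own control in all 3 lines, against 17.6% of the other IDs, and 11 were above it in all 3, against 27.3%. In size, 3 were lower by at least 1 in PEG-1 and 0 in PEG-2 or the EUE epiline. Their median differences were -0.06, -0.05 and -0.06.

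The rule does not compare PEG-1 with PEG-2. This difference was tested in edgeR's quasi-likelihood fit over 36410 IDs, in which all 183 members were present. The rule did use the libraries of both lines and put a lower limit on each line's difference to the control. The difference between the lines is thus conditional on both being raised, and the shares of unselected IDs beside it are not a like comparison. The log2 level was higher in PEG-1 in 174 of the 183, 95.1%, against 48.8% of all tested IDs, with a median log2 difference of 0.69. Both PEG-1 libraries lay above both PEG-2 libraries in 43 members, 19.1% of all 23802 IDs doing so. The edgeR test with Benjamini-Hochberg adjustment called 0 members, and 0% of all IDs. An unadjusted p under 0.05 was found in 1 member and in 1.62% of all IDs. DESeq2 also called 0 members, with 11 at an unadjusted p under 0.05 (1.69% of all IDs). Blocked by replicate number, edgeR called 0, and 29 had an unadjusted p under 0.05 (6.44% of all IDs). Without PEG-1 replicate 2 the median was -0.02, and with it left in but without PEG-2 replicate 2 it was 1.17. In the unblocked fit the sign and size of the median thus turned on single libraries. Each of these sets leaves the lines with unlike replicate numbers, and replicate 2 was the higher in most members in both lines. By number, the median over members was 9.79 CPM in PEG-1 and 6.32 CPM in PEG-2 for replicate 1, and 19.5 and 10.4 CPM for replicate 2. With the replicate number as a block, the median log2 difference was 0.66.

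Both members at the upper end of this comparison had 0 counts in the PEG control. ERF85094-ERC23175 had 0 counts in both PEG control libraries and was at 4.95 and 6.54 CPM in PEG-1, 1.15 and 1.27 CPM in PEG-2, 0.323, 0 and 0 CPM in the EUE control, and 1.97, 6.37 and 16.3 CPM in the EUE epiline. Taking 6 counts (3 read pairs) per library as the floor, it was at least 35.5-fold higher in PEG-1 and at least 7.47-fold higher in PEG-2 than in the PEG control. Its log2 difference between PEG-1 and PEG-2 was 2.21 (standard error 1.03; edgeR adjusted p = 1, and 0.722 to 1 over the alternatives). ERF64687-ERC35174, again with 0 counts in the PEG control, was at 2.37 and 13.0 CPM in PEG-1 and at 0.522 and 2.82 CPM in PEG-2. Those lines overlapped, and the log2 difference was 2.13 (standard error 1.14; edgeR adjusted p = 1, and 0.562 to 1 over the alternatives). It was 0.43 without PEG-1 replicate 2, 1.35 without PEG-2 replicate 1 and 3.92 without PEG-2 replicate 2.

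At the lower end PEG-1 and PEG-2 were close. ERF78814-ERC35756 was at 1.83 and 4.86 CPM in PEG-1 and 1.62 and 5.69 CPM in PEG-2, so that log2 differed by -0.20 (standard error 1.03; edgeR adjusted p = 1). ERF85314 was at 5.00 and 6.12 CPM in PEG-1 and 6.32 and 5.58 CPM in PEG-2, so that log2 differed by -0.13 (standard error 0.51; edgeR adjusted p = 1). In both IDs the libraries of the lines overlapped.

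The difference to the control in a PEG line was also set against that in the EUE epiline, as an interaction in the same fit. The rule used both of these differences and put a lower limit on each, and PEG-2 had the smallest of the 3 in 169 members, so the values are a description, and nothing is read from their counts or from the shares of unselected IDs beside them. For PEG-1, 90 of 183 members had the larger log2 difference in PEG-1, 49.2%, against 46.8% of all tested IDs, and the median interaction was -0.04. For PEG-2 the log2 difference was larger than in the EUE epiline in 26 members, 14.2%, against 49.1% of all tested IDs, and the median was -0.66. Called by edgeR were 0 members in either interaction and 0% of all IDs. At an unadjusted p under 0.05 there were 0 members in either, against 1.11% of all IDs for PEG-1 and 0.926% for PEG-2. DESeq2 called 0 members in either, where it called 0.00210% of all IDs for PEG-1 and 0.00420% for PEG-2, and 0 members had an unadjusted p under 0.05, against 1.15% and 0.994% of all IDs. Blocked by replicate number, edgeR called 0 members in either. An unadjusted p under 0.05 was then found in 6 members for PEG-1 and 0 for PEG-2, against 1477 and 1149 of 36410 IDs. In edgeR without EUE epiline replicate 1 it was found in 5 members for PEG-1 and 20 for PEG-2, against 611 and 535 of 36297 IDs. Leaving out another EUE library gave fewer members in both. The median for PEG-2 was -0.17 without EUE epiline replicate 3 and -1.23 without PEG-2 replicate 2, and that for PEG-1 ran from -0.60 without PEG-1 replicate 2 to 0.48 without EUE epiline replicate 3.

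The strongest tilt towards the EUE epiline by the mean of both PEG lines was in ERF93575 and ERF78814-ERC35756. ERF93575 was at 3.20 and 5.87 CPM in the PEG control, 10.0 and 12.6 CPM in PEG-1, 8.15 and 11.7 CPM in PEG-2, 2.1, 0.706 and 1.83 CPM in the EUE control, and 2.98, 11.8 and 21.0 CPM in the EUE epiline. Its interaction was -1.62 (standard error 0.95) for PEG-1 and -1.76 (standard error 0.95) for PEG-2. Without EUE epiline replicate 3 these were -0.87 and -1.01, and without PEG control replicate 2 that for PEG-1 was -1.07. ERF78814-ERC35756 was at 0.276 and 1.11 CPM in the PEG control, 0.484, 0 and 0.328 CPM in the EUE control, and 1.22, 4.63 and 7.48 CPM in the EUE epiline, and its interactions were -1.75 (standard error 1.46) and -1.55 (standard error 1.46). Without PEG control replicate 2 they were -0.37 and -0.19, and without EUE epiline replicate 3 they were -1.09 and -0.90. The PEG-2 value was also -2.86 without PEG-2 replicate 2, -0.90 without PEG-2 replicate 1 and -0.97 without EUE control replicate 2. The strongest tilt towards the PEG lines was in ERF89913-ERC43551 and ERF64687-ERC35174, which had 0 counts in both PEG control libraries. Their fitted interactions are therefore not given, and by the floor they were at least 43.8-fold and at least 47.5-fold higher in PEG-1 and at least 15.8-fold and at least 10.3-fold higher in PEG-2 than in the PEG control. With 3 members at 0 in the PEG control, the other 180 had medians of -0.06 (PEG-1) and -0.67 (PEG-2).

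The rule compares no library across experiments, and the levels of the members in both control lines were tested against each other. It did ask each control library to lie below the selected libraries of its own experiment, so the members were chosen for low controls in both. The shares of unselected IDs are therefore given beside the members' counts as a description, and nothing is read from them. The log2 level was higher in the PEG control in 98 of the 183, 53.6%, against 47.3% of all tested IDs, and the median log2 difference was 0.03 (0.06 over the 180 members with a count in the PEG control). No member, 0 of 183, was called by edgeR in this comparison, while 2.94% of all tested IDs were, and 9 members, 4.92%, had an unadjusted p under 0.05, against 15.9% of all IDs. DESeq2 called 2 members and 4.76% of all IDs, and edgeR without the filter 2 members and 2.64%. In edgeR blocked by replicate number the calls were 5 members and 15.7% of all IDs. That block was set within each experiment and takes the spread between replicate numbers out of the error. A comparison between experiments holds this spread, so the blocked p-values are too small here and their calls too many. The controls of both experiments did not overlap in 29 members, while 29.9% of all 23802 IDs had such controls. The control line and its experiment cannot be told apart, and the part that the members' wide spread between replicates has in these counts was not tested.

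Among the members with the smallest p on either side, ERF75296-ERC47926 was higher in the PEG control, at 4.46 and 7.87 CPM against 1.56, 0.652 and 0.937 CPM in the EUE control. Its log2 difference was 2.68 (standard error 0.72; edgeR adjusted p = 0.0810; 0.00300 to 0.502 over the alternatives). It was at 15.4 and 29.3 CPM in PEG-1, 15.3 and 18.8 CPM in PEG-2 and 3.08, 4.98 and 20.7 CPM in the EUE epiline, so EUE epiline replicates 1 and 2 did not exceed the PEG control range. ERC44819 was at 1.27 and 3.49 CPM in the PEG control and 0.861, 0.109 and 0.422 CPM in the EUE control, so that log2 differed by 2.48 (standard error 0.71; edgeR adjusted p = 0.0998; 0.00738 to 0.736 over the alternatives). It was 1.51 without PEG control replicate 2.

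ERF78796-ERC35734 was lower in the PEG control, at 4.19 and 3.06 CPM against 11.6, 8.31 and 13.7 CPM in the EUE control, so that log2 differed by -1.53 (standard error 0.53; edgeR adjusted p = 0.178; 0.0141 to 0.715 over the alternatives). It was at 17.0 and 14.6 CPM in PEG-1, 12.6 and 6.74 CPM in PEG-2 and 17.1, 31.2 and 69.5 CPM in the EUE epiline, so PEG-2 overlapped the EUE control. ERF61773 was at 0.110 and 0.528 CPM in the PEG control and 2.64, 1.25 and 1.92 CPM in the EUE control, so that log2 differed by -2.45 (standard error 1.02; edgeR adjusted p = 0.264; 0.00537 to 0.487 over the alternatives), and by -4.03 without PEG control replicate 2. In all 4 IDs the control groups of both experiments did not overlap. All 4 passed 0.05 when blocked by replicate number, but the blocked p-values are too small for a comparison between experiments. The block gave the lowest adjusted p over the alternatives for ERC44819, ERF78796-ERC35734 and ERF61773. The last 2 of these passed in no other alternative. The pair higher in the PEG control also passed in DESeq2 and without the filter, and ERF75296-ERC47926 passed without EUE epiline replicate 1 or 3.

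The kinds of ID among the members were set beside those of all IDs over the limit. Joined IDs were 103 of the 183, 56.3%, and 56.6% of the 23802. Single ERF IDs were 48, 26.2% against 24.4%, and single ERC IDs 32, 17.5% against 19.0%. Members were more frequent among directly adjacent numbers than among all IDs, while within 10 numbers the ERC share was slightly above and the ERF share below that of all IDs. Of 126 IDs next to a member in the ERC numbering, 4 were members, 3.18% against 0.750% of all IDs with an ERC number. Of 128 IDs next to a member in the ERF numbering, 6 were members, 4.69% against 0.783%. Of 1217 IDs within 10 ERC numbers of a member, 12 were members, 0.986%, and of 1336 within 10 ERF numbers 8 were, 0.599%. These shares rest on few IDs and were not tested. Directly adjacent members were ERC27523 and ERC27524, ERF73664 and ERF73665, ERF83554 and ERF83555, and the joined pair ERF73904-ERC29847 and ERF73903-ERC29848. How the deposited counting treated reads shared by near-identical copies is not given, so adjacent or paralogous IDs may share reads and are not separate observations.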

How the data were processed

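The authors deposited raw counts, 1 column for each library. GSNAP and SAMtools appear in the submitters' processing notes. The genome, annotation, counter and use of strand were not given in the sources used here. All values were even (0 odd), so each read pair may count 2 times. All 12 columns matched their samples by name (0 others). CPM and L used column totals of 36210542 to 42696798 counts, and Python 3.11.15. The tests ran in R 4.3.3 with edgeR 4.0.16 (TMM, filterByExpr with a minimum count of 10, quasi-likelihood F-test, 1 fit over 12 libraries with 5 group means), with Benjamini-Hochberg adjustment over 36410 IDs and a threshold of 0.05. DESeq2 1.42.0, other scalings and filters, counts divided by 2, the replicate number as a block and each library left out in turn were alternatives. The fit was tested on simulated data. Floors cover counting error only.

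Same-numbered EUE libraries deviated together (r = 0.61 to 0.74 over 17455 IDs of at least 5 CPM, other pairs at most -0.05). The numbers were thus taken to pair them, from the data and not the labels. Same-numbered PEG libraries had r of 0.53 to 0.69 over these IDs, but the PEG groups share only 2 numbers. The main fit did not use this pairing, so its counts of calls leave it out, and only the alternative with the replicate number as a block used it. The biological coefficient of variation, the fitted spread between replicates, was 32.2% in the main fit and 18.7% with the block. Members and lists were chosen with earlier results of these data known. Named IDs are the extremes of the members: smallest-of-3 difference, reads, both sides of each tested comparison, limits of the rule and spread within groups, plus those next to a limit. IDs named as least correlated or adjacent were chosen after their values were seen.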

Additional observations from a re-analysis of the deposited data

How the results depend on the processing

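The count of 183 IDs stayed within 1.5 times under another CPM minimum, a pseudocount of 0.25, group means without the ordering of libraries and 3 other scalings, of which TMM gave 182 IDs, 179 of them the same. It was 116 with a pseudocount of 2, 341 with a minimum difference of 0.5 and 92 with 1.5. Leaving out 1 library gave 130 (without PEG-2 replicate 2) to 252 (without PEG control replicate 2). With the replicate number as a block, 5 members were called between the controls (15.7% of all IDs), against 0 without it (2.94%). The blocked p-values are too small for that comparison, which lies between experiments. In the other 3 comparisons the block called 0 members. Between PEG-1 and PEG-2, 29 members then had an unadjusted p under 0.05, against 6.44% of all IDs. Between the controls, no filter gave 2 members called (2.64% of all IDs) and DESeq2 gave 2 (4.76%). Leaving out 1 EUE library gave 0 to 1, the 1 being ERF75296-ERC47926 without EUE epiline replicate 1 or 3. In those 2 fits 1067 of 36297 and 1010 of 36319 IDs were called. No other count of called members changed. Leaving out 1 library turned the sign of the PEG-1 to PEG-2 difference of ERF78814-ERC35756 (-1.07 to 1.1) and of ERF85314 (-0.28 to 0.0051). The causes were not tested. Depth limits IDs under 6 counts per library, which were at most 13 members in any 1 control library and 0 in selected libraries.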
